A study of Drosophila melanogaster with 25 samples.

Results

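TH-GAL4 neurons of the adult *Drosophila* brain, cells marked by a driver for dopaminergic neurons (DANs), were compared between ZT14, early in the night, and ZT02, early in the day, by plate-based single-cell RNA sequencing. ZT (zeitgeber time) counts hours from lights on, so that ZT02 lies shortly after the light comes on and ZT14 shortly after it goes off. The comparison takes the 4 ZT14 libraries (numbers 5 to 8) and the 4 ZT02 libraries (numbers 1 to 4) of TH-GAL4 neurons whose titles carry the same final number, made with a modified CEL-seq2 protocol. They hold 512 of the 9025 deposited cells, 256 at each time, and are 8 of the 25 samples of the series. All flies carried EGFP under TH-GAL4, a driver that uses regulatory sequence of the tyrosine hydroxylase gene and marks only a subset of DANs, and both times were sampled from adults, without age, in equal numbers of males and females held in cycles of equal light and dark. Brains of both times were dissected in saline with blockers of neuronal activity, and cells positive for GFP and a nuclear dye were sorted singly. The measure is the UMI, a tag that marks each captured mRNA molecule once, summed for each gene over the cells of a library. Levels are given as TP10K, a gene's share of the library scaled to 10000 UMIs, spike-in RNA left out. UMIs were counted from the 3′ end of each mRNA, so a level is a number of molecules and was not corrected for length. In such sums fewer cells of a type and less RNA per cell cannot be told apart.

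DANs make dopamine from tyrosine through tyrosine hydroxylase (*ple*) and dopa decarboxylase (*Ddc*), load it into vesicles with the vesicular monoamine transporter (*Vmat*) and take it back up with the dopamine transporter (*DAT*). In flies they act in arousal, reward and motor control, and dopamine is a wake-promoting signal. Neuronal firing induces a class of transcripts known as activity-regulated genes, among them the transcription factor genes *stripe* (*sr*), of the EGR family, and *Hr38*, the fly member of the NR4A nuclear receptors, so that their mRNA is read as a record of recent activity.

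The libraries held 55 to 75 cells and 548486 to 836794 UMIs, with a median of 8429.5 UMIs per cell. No library of a time was a second deposit of another, with a chi-square per degree of freedom of 4.4 to 8.62 between the counts of a pair. This value sets different cells against counting noise and does not bear on whether the libraries are biological replicates. The protocol makes 4 libraries from one plate, and no source says that libraries of a time came from separate flies, so that p-values measure the spread between libraries alone, and plate and time cannot be told apart. ZT02 libraries 2 and 4 stood apart from the other 6 libraries compared in *sprt*, at 15.7 and 8.62 TP10K against 0.18 to 0.321. They had an *sprt* UMI in 68 of 68 and 54 of 55 cells. Libraries of another time were uneven in *sprt* as well, at 0.298 to 15.3 TP10K at ZT10. Whether ZT02 libraries 2 and 4 came from the same flies as ZT02 libraries 1 and 3 is not given in the sources used here. The neuronal markers *fne*, *Syt1*, *nSyb*, *brp* and *elav* summed to 112 to 122 TP10K at ZT14 and 113 to 125 at ZT02, and the 4 dopaminergic markers to 100 to 152 at ZT14 and to as much as 143 at ZT02. The glial defining marker *repo* and the astrocyte marker *alrm* had no UMI in any of the 8 libraries, the summed 8 glial markers reached at most 1.63 TP10K at ZT14 and 1.57 at ZT02, and the 6 muscle markers 0.0781 and 0.0182. The EGFP row of the table had 10 UMIs over the 8 libraries, so the reporter could not be used to check the sort.

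The transcript of *sr* was lower at ZT14. Its level was 0.967, 0.703, 0.833 and 1.08 TP10K in ZT14 libraries 5, 6, 7 and 8, against 3.88, 2.37, 4.25 and 3.52 TP10K in ZT02 libraries 1, 2, 3 and 4. The highest ZT14 library thus lay below the lowest ZT02 library. The means were 0.896 ± 0.163 at ZT14 and 3.51 ± 0.815 TP10K at ZT02 (SD, n = 4 each), and edgeR's quasi-likelihood test gave a log2 fold change of -2.02 (SE 0.21, 95% interval -2.48 to -1.57, adjusted p = 0.00286). *sr* (FBgn0003499) lies on the plus strand of chromosome 3R from 18090803 to 18135583 in the BDGP Release 6 assembly (dm6), and the only genes annotated within it are 2 tRNA genes. Of the 4483 genes tested over all cells it was the only one called, which asked for an adjusted p below 0.05 together with a log2 fold change of 0.32 or more in size. That makes 0.0223% of the genes called lower at ZT14 and 0% called higher, while 194 genes (4.33%) were lower and 139 (3.1%) higher at an unadjusted p under 0.05, and DESeq2 called 21 lower (0.554% of the 3790 genes it gave an adjusted p) and 4 higher (0.106%).

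Many cells contributed to the *sr* level. The cell with the most *sr* UMIs gave 15.2% to 34.4% of the UMIs of a ZT14 library and 10.4% to 26.8% of a ZT02 library, and without that cell the libraries stood at 0.601 to 0.774 TP10K at ZT14 and 1.8 to 3.92 at ZT02. With every cell thinned to 3000 UMIs, 19.4%, 16.1%, 12% and 10.5% of the cells of ZT14 libraries 5 to 8 had an *sr* UMI, against 40.3%, 25.0%, 49.3% and 32.7% in ZT02 libraries 1 to 4. The shares of the times did not overlap (difference -22.3 percentage points, two-sided exact permutation test, p = 0.0286, the smallest that 4 against 4 libraries can give). This test was run for *sr* alone and on the same UMIs as the call, so it is not independent of the call. As deposited, cells with at least 10 *sr* UMIs numbered 2, 0, 2 and 2 in the ZT14 libraries and 8, 5, 15 and 6 in the ZT02 libraries. Summed over thinned cells, the log2 fold change of *sr* was -1.59 with an adjusted p of 0.119, which ended the call. In the other alternatives, including leaving out each library in turn, *sr* stayed called, with log2 fold changes between -2.25 and -1.91. The value of -2.25 (adjusted p = 0.00222) came without both ZT02 libraries 2 and 4, where *Pdf* and *CG44247* were called lower beside *sr*.

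**Figure D1:**
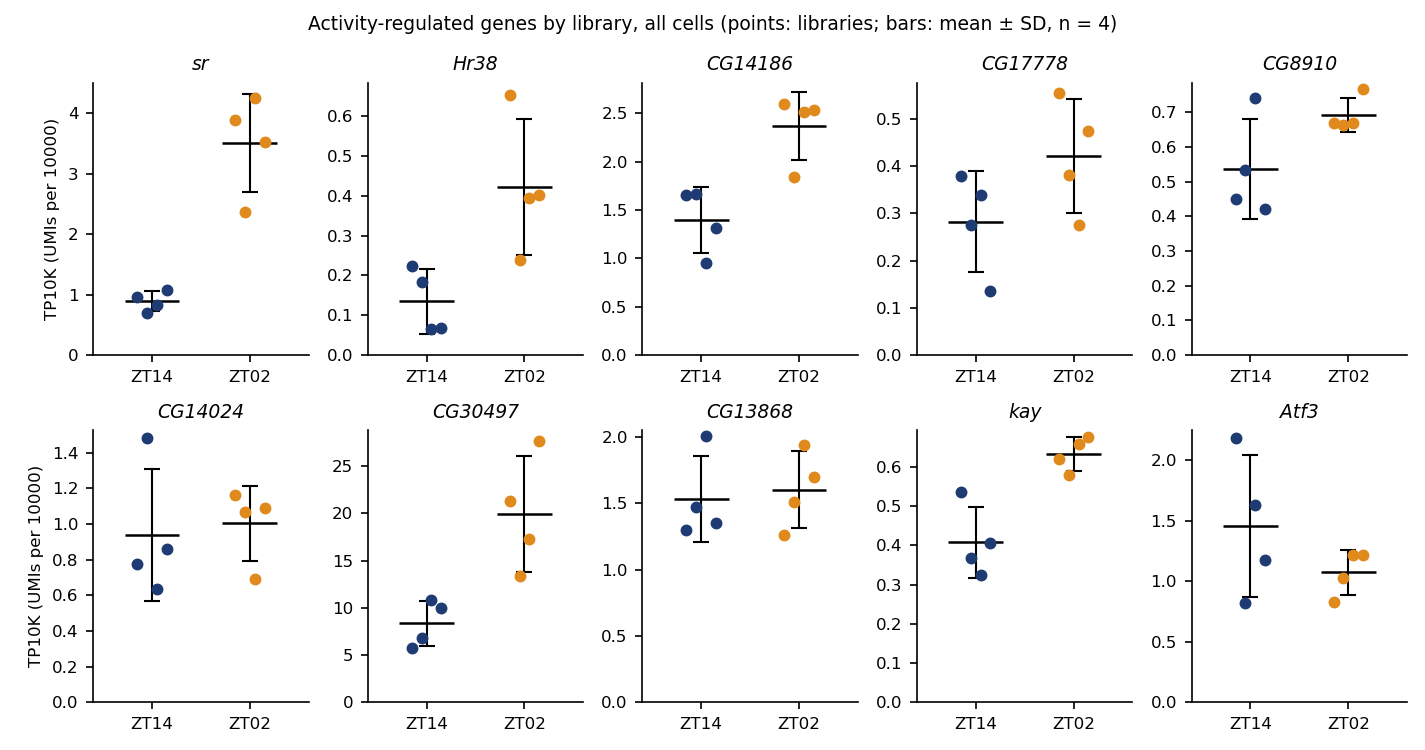
Levels of the 10 activity-regulated genes tested, in UMIs per 10000 (TP10K, axis from 0), for each ZT14 library (left, blue) and each ZT02 library (right, orange) over all cells, with bars for the mean ± SD of 4 libraries. The groups did not overlap for *sr*, *Hr38*, *CG14186*, *CG30497* and *kay*, each lower at ZT14, and overlapped for the other 5.

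Other activity-regulated genes had lower levels at ZT14 too, and edgeR called *sr* alone while DESeq2 called *sr*, *CG30497* and *CG14186*. The list held 12 genes, all in the table, of which 10 passed the filter on low counts. Of these edgeR called 1 lower and none higher, 9 had a negative and 1 a positive log2 fold change, and the median was -0.64 against -0.0067 over all genes tested. Over all genes tested 2190 log2 fold changes were positive and 2293 negative. In 5 of the 10 every ZT14 library lay below every ZT02 library, which held for 71 of the 4483 genes (1.58%), and in none was it the reverse (3.01% of genes). The list was compiled from genes known to follow neuronal firing, with earlier results on *sr* in these data known.

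*CG30497*, an uncharacterised gene annotated as *CG46385* in the current release, was the most abundant member. It stood at 5.78, 6.85, 10.8 and 10.0 TP10K in ZT14 libraries 5 to 8 and at 21.3, 13.4, 17.3 and 27.7 TP10K in ZT02 libraries 1 to 4, with a log2 fold change of -1.30 (SE 0.25, adjusted p = 0.204 by edgeR). As deposited 88.7% to 96.8% of the cells of a ZT14 library and 97.2% to 100% of a ZT02 library had a UMI of it, and at equal depth 66.1% to 86.7% of the cells of a ZT14 library did, against 92.6% to 98.4% of a ZT02 library. *CG14186*, also uncharacterised, was at 1.66, 1.67, 0.95 and 1.32 TP10K in the ZT14 libraries, against 2.6, 1.84, 2.51 and 2.53 in the ZT02 libraries (log2 fold change -0.82, SE 0.19, adjusted p = 0.263). Both genes were called lower by DESeq2 (adjusted p = 0.0126 and 0.0186).

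*Hr38* was scarce, at 0.224, 0.183, 0.0651 and 0.0675 TP10K in ZT14 libraries 5 to 8 and 0.653, 0.24, 0.394 and 0.401 TP10K in ZT02 libraries 1 to 4. These levels rest on 34 UMIs at ZT14 and 112 at ZT02, and the log2 fold change was -1.70 (SE 0.44, adjusted p = 0.398). Without the filter on low counts edgeR called *Hr38* lower, together with *sr*, *CG30497* and *CG14186*. *kay*, which encodes the fly Fos protein, had levels of 0.325 to 0.535 TP10K at ZT14 and 0.579 to 0.675 at ZT02 (log2 fold change -0.69, SE 0.22, adjusted p = 0.566). The groups overlapped for *CG17778*, *CG8910*, *CG14024*, *CG13868* and *Atf3*. *Atf3*, which encodes a stress-responsive bZIP transcription factor, was the member with a positive log2 fold change (0.39, SE 0.27), and ZT14 library 5 was its highest library at 2.18 TP10K. The 2 members below the filter were *Arc1*, at 0.0611 to 0.57 TP10K at ZT14 and 0.0239 to 0.128 at ZT02, and *CG13055*, at most 0.0844 TP10K in any library. *Hr38* overlaps *CG2617* and 2 lncRNA genes in the annotation and *kay* overlaps 2 other genes, and whether UMIs were counted by strand is not given in the sources used here, so part of their UMIs could belong to these neighbours.

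**Figure D2:**
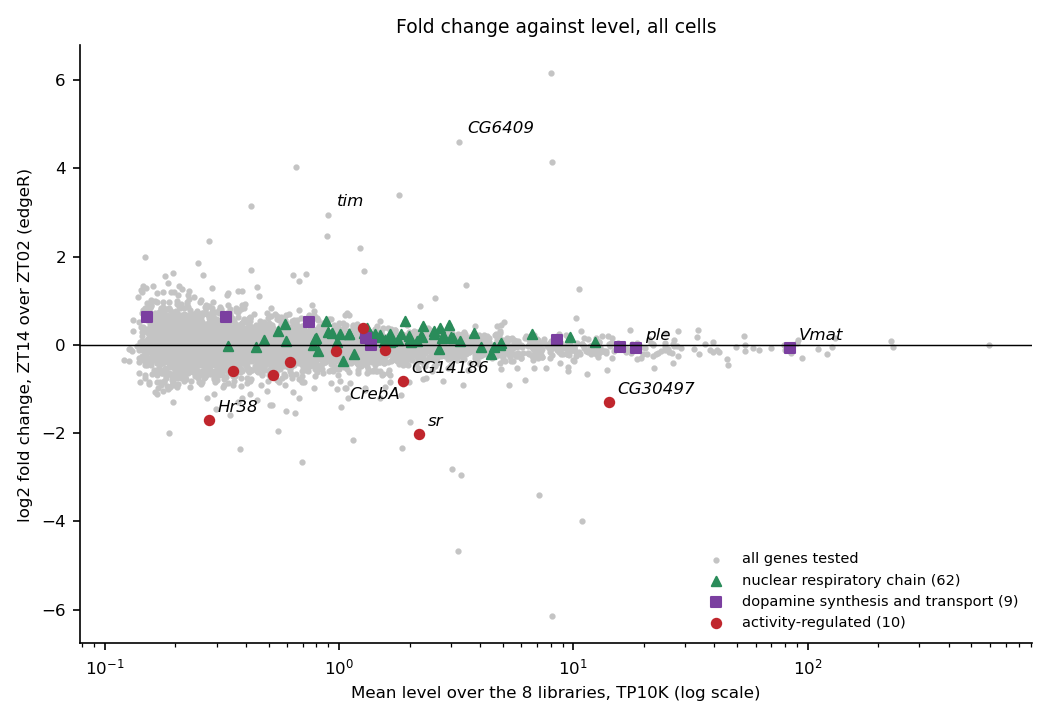
Log2 fold change of ZT14 over ZT02 by edgeR against the mean level over the 8 libraries (TP10K, log axis) for the 4483 genes tested over all cells, with members of 3 gene lists marked. *sr* lies lowest of the activity-regulated genes (red circles), while *ple* and *Vmat* (purple squares) lie close to 0 and 53 of the 62 nuclear respiratory chain genes (green triangles) lie above it.

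Some genes outside this list, all with an unadjusted p under 0.05, were chosen after their values were seen. *CrebA*, which encodes a bZIP transcription factor of secretory cells, was at 0.363, 0.581, 0.443 and 0.911 TP10K in the ZT14 libraries and 2.17, 1.03, 1.37 and 1.31 in the ZT02 libraries (log2 fold change -1.41, SE 0.30, adjusted p = 0.263). *sty*, the gene for Sprouty, an inhibitor of receptor tyrosine kinase signalling, stood at 1.74 to 2.32 TP10K at ZT14 and 2.74 to 3.08 at ZT02 (log2 fold change -0.59, SE 0.12, adjusted p = 0.204). *Axud1* was at 0.535 to 1.08 and 1.24 to 1.72 TP10K (log2 fold change -0.87, adjusted p = 0.324), and *CG44247* at 8.09 to 9.63 and 11.1 to 17.1 TP10K (-0.67, adjusted p = 0.263). In the opposite direction, *CG8861* was at 2.35 to 4.22 TP10K at ZT14 and 1.4 to 1.72 at ZT02 (log2 fold change 0.87, SE 0.18, adjusted p = 0.223), and *Clect27*, a C-type lectin gene, at 0.363 to 1.54 and 0.0141 to 0.114 TP10K (3.14, SE 0.57, adjusted p = 0.204). None of these 6 genes had overlapping groups. EdgeR called none of them in its main fit, and DESeq2 called all 6, at adjusted p of 0.00446 for *CrebA*, 0.011 for *sty*, 0.0489 for *Axud1*, 0.00436 for *CG44247*, 0.0104 for *CG8861* and 0.000124 for *Clect27*. Other edgeR settings called some of them. Among these were *CrebA* and *Clect27* without the filter, and *CG44247* without both ZT02 libraries 2 and 4 (adjusted p = 0.044).

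The genes that define DANs did not differ beyond the spread between libraries. *Vmat* stood at 73, 101, 66.2 and 94.8 TP10K in ZT14 libraries 5 to 8, against 98.2, 81.2, 75.8 and 86.1 TP10K in ZT02 libraries 1 to 4. Its log2 fold change was -0.08 (SE 0.13, 95% interval -0.36 to 0.20). *ple* was at 13.6, 23, 13.9 and 23.6 TP10K at ZT14 and 19.2, 17.5, 17.7 and 20.3 at ZT02, with a log2 fold change of -0.07 (SE 0.18). The ZT14 libraries were split, 6 and 8 being high and 5 and 7 low in both *Vmat* and *ple*, and the SD of *Vmat* was 16.7 TP10K at ZT14 and 9.56 at ZT02. *DAT* was at 15.9 ± 2.19 TP10K at ZT14 and 15.9 ± 1.47 at ZT02 and *Ddc* at 8.98 ± 1.41 and 8.0 ± 0.628 TP10K (SD, n = 4 each), with log2 fold changes of -0.05 and 0.11. Over the whole list of dopamine synthesis and transport, 9 of 11 genes were tested and none was called by edgeR or DESeq2. At an unadjusted p under 0.05, 1 was higher and none lower (3.1% and 4.33% of all genes tested), and the median log2 fold change was 0.11. Enzymes of the cofactor tetrahydrobiopterin belong to the list. *Pu*, which encodes GTP cyclohydrolase, was at 1.2 to 1.8 and 0.956 to 1.45 TP10K, and only *Sptr*, sepiapterin reductase, had every ZT14 library (0.404 to 0.414 TP10K) above every ZT02 library (0.182 to 0.367), at an adjusted p of 0.645. Over all genes tested 3.01% showed this.

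**Figure D3:**
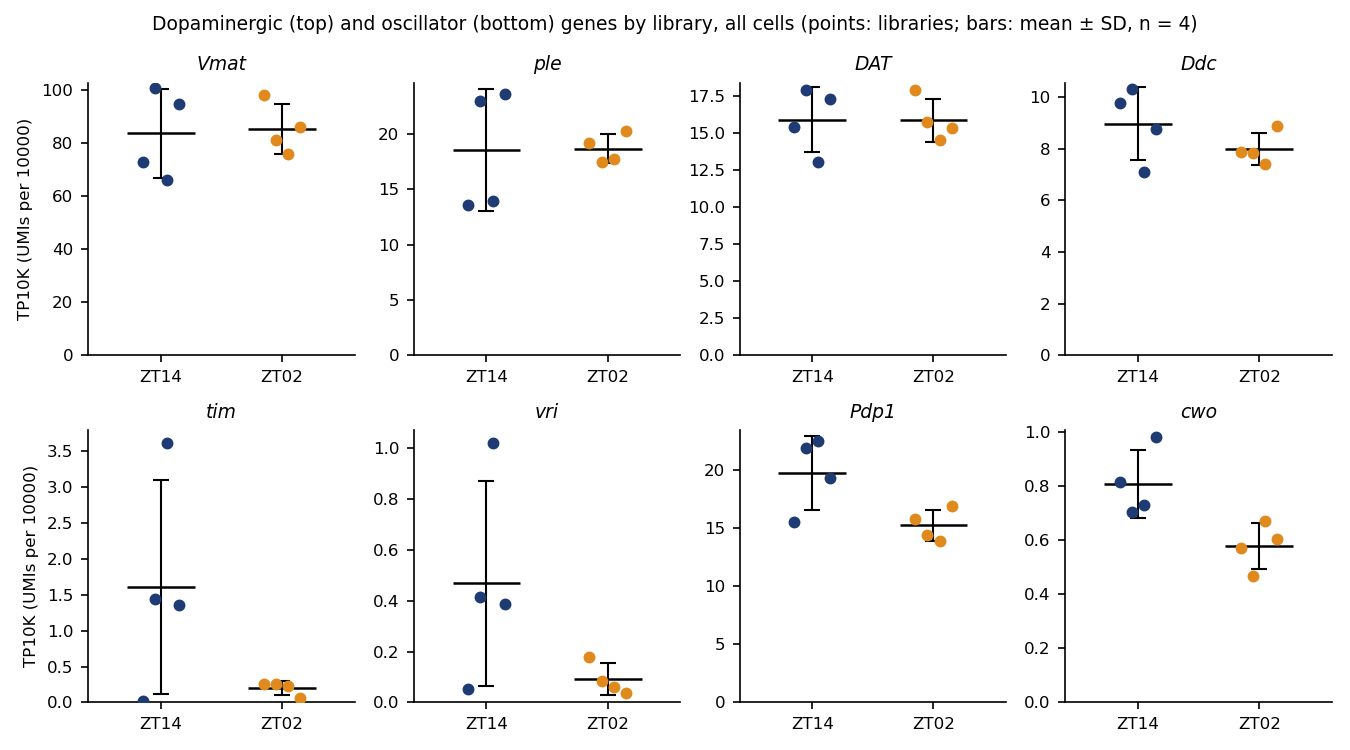
Levels of 4 dopaminergic genes (top) and 4 genes of the circadian oscillator (bottom) in UMIs per 10000 (TP10K, axis from 0) in each ZT14 library (left, blue) and ZT02 library (right, orange) over all cells, with bars for the mean ± SD of 4 libraries. Of these genes *cwo* alone had every ZT14 library above every ZT02 library, and *tim* and *vri* were high in ZT14 libraries 6 to 8 but not in library 5.

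The fly clock is a feedback loop in which CLK and CYC switch on *per*, *tim*, *vri*, *Pdp1* and *cwo*, whose mRNAs peak in the early night in clock neurons. In the TH-GAL4 cells, *tim* was at 0.0173, 1.44, 3.61 and 1.35 TP10K in ZT14 libraries 5, 6, 7 and 8, against 0.261, 0.254, 0.227 and 0.0547 TP10K in ZT02 libraries 1, 2, 3 and 4. ZT14 library 5, with a single *tim* UMI, was the lowest of all 8, and the other 3 ZT14 libraries lay above every ZT02 library. The log2 fold change was 2.95 (SE 0.84, adjusted p = 0.424), and *tim* was called higher when library 5 was left out and, with *vri*, when low counts were not filtered. As deposited, 1, 13, 40 and 14 cells of ZT14 libraries 5 to 8 had a *tim* UMI. In ZT02 libraries 1 to 4 the numbers were 12, 13, 8 and 1. Much of the total in ZT14 libraries 6 to 8 came from single cells. One cell held 48 of the 94 UMIs of library 6, 146 of 277 in library 7 and 50 of 80 in library 8, and cells with at least 10 *tim* UMIs numbered 0, 2, 4 and 1 at ZT14 and none at ZT02. *vri* followed the same pattern over libraries, at 0.0518, 0.413, 1.02 and 0.388 TP10K at ZT14 and 0.18, 0.0847, 0.0598 and 0.0365 at ZT02 (log2 fold change 2.35, SE 0.71, adjusted p = 0.49). *Pdp1*, which has isoforms outside the clock, was at 15.5 to 22.5 and 13.9 to 16.9 TP10K, and *cwo*, a repressor of the loop, at 0.703 to 0.979 and 0.466 to 0.669 TP10K (log2 fold changes 0.33 and 0.43, adjusted p = 0.645 and 0.68). *per* overlapped between times at 0.104 to 0.417 and 0.127 to 0.311 TP10K. *Clk* (at most 0.184 TP10K) and *cry* (at most 0.287 TP10K) were below the filter. Of the oscillator list 5 of 7 genes were tested over all cells, and none was called by edgeR or DESeq2. Of these 3 were higher at an unadjusted p under 0.05, which held for 3.1% of all genes tested. All 5 log2 fold changes were positive, with a median of 0.43. In *Vmat*-high cells, the cells with the most *Vmat*, only *Pdp1* (log2 fold change 0.21) and *cwo* (-0.16) were tested, with a median of 0.025. There *vri* averaged 0.0931 TP10K at ZT14 and 0.118 at ZT02, and *per* 0.196 and 0.251. In the opposite direction, *tim* averaged 0.615 TP10K at ZT14 (0 to 1.72) and 0.181 at ZT02 (0 to 0.367) in these cells.

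The rule for this comparison also asks for sums over cells with a *Vmat* UMI, and these hold nearly the same cells. Of the 512 cells 508 had such a UMI, the other 4 being 1 cell of ZT14 library 5 and 3 of library 6. The fit over these cells tested 4473 genes and called *sr* lower (0.0224%) and none higher (0%), with 195 genes lower (4.36%) and 141 higher (3.15%) at an unadjusted p under 0.05 and 19 lower (0.345%) and 5 higher (0.0908%) by DESeq2. Other abundant transcripts also had UMIs in most cells of a library. In ZT02 library 1 one cell held 3223 of the 3620 UMIs of the neuropeptide gene *NPF*, and 61 of the 62 cells had an *NPF* UMI, whereas in ZT14 library 5 none of 62 cells had one.

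**Figure D4:**
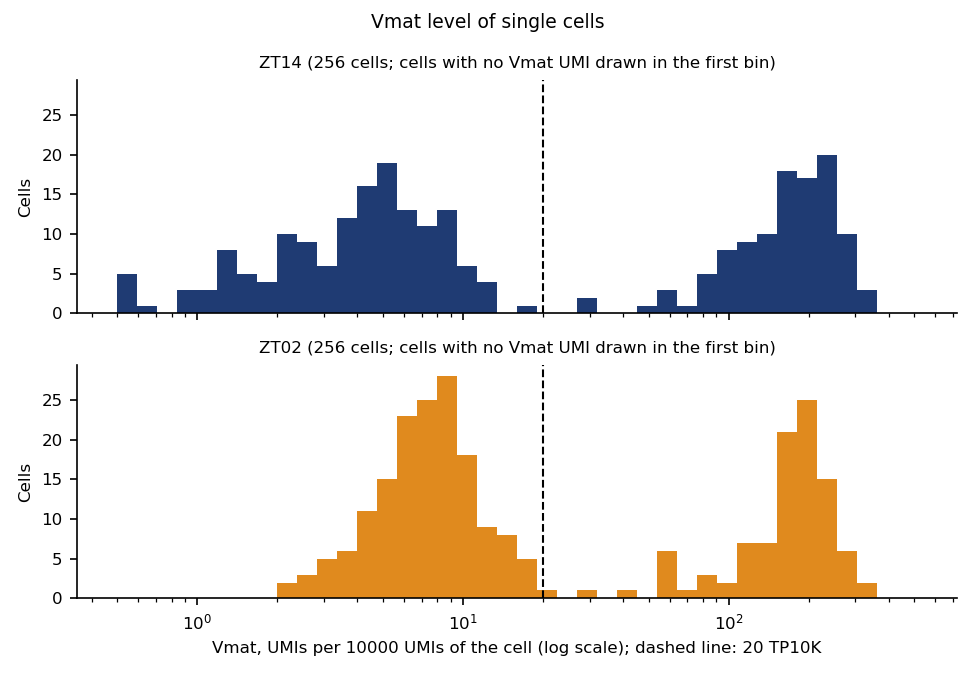
Number of cells by their *Vmat* level (UMIs per 10000 of the cell, log axis), for 256 ZT14 cells (top) and 256 ZT02 cells (bottom), with the cut at 20 TP10K dashed and cells without a *Vmat* UMI drawn in the first bin. Both times show 2 groups of cells, with medians of 175 and 4.31 TP10K at ZT14 and of 181 and 7.61 TP10K at ZT02.

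Cells instead fell into 2 classes by their *Vmat* level, and a cut at 20 TP10K was set after this distribution was seen. The 204 *Vmat*-high cells had a median of 180 TP10K and the 308 *Vmat*-low cells a median of 5.98, and 17 cells lay between 14 and 40 TP10K, 3 at ZT14 and 14 at ZT02. *Vmat*-high cells made up 41.9%, 46.8%, 37.3% and 42.1% of ZT14 libraries 5 to 8 and 40.3%, 39.7%, 35.2% and 36.4% of ZT02 libraries 1 to 4 (difference 4.14 percentage points, exact permutation p = 0.143, adjusted p = 0.343). The median depth was 9614 UMIs in *Vmat*-high and 7826.5 in *Vmat*-low cells. Over the 8 libraries *ple* stood at 36.5 TP10K in *Vmat*-high and 4.52 in *Vmat*-low cells, *DAT* at 33.7 and 1.96, and *Ddc* at 13.9 and 4.12. Among genes of other transmitters, *VGlut*, *Gad1* and *ChAT* ran the other way. *VGlut* was at 6.48 TP10K in *Vmat*-high and 16.3 in *Vmat*-low cells, and *Gad1* at 1.04 and 12.6. The serotonergic genes *Trh* (1.2 and 0.494) and *SerT* (0.564 and 0.0768) and the octopaminergic *Tbh* (2.5 and 1.01) were higher in *Vmat*-high cells. *Tdc2* (0.412 and 0.394) and the neuronal markers *elav* (5.01 and 4.75) and *nSyb* (27.7 and 22.1) were at similar levels in both. *Vmat*-low cells thus held 12.4% of the *ple* and 5.83% of the *DAT* level of *Vmat*-high cells. The dopaminergic markers did not bear out the label for these 308 of the 512 cells. These levels describe the classes, which were cut from the same cells, and were not tested.

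*sr* had lower levels at ZT14 in both classes, and whether the difference was called depended on the setting in each. In *Vmat*-high cells *sr* was at 1.04, 0.607, 0.978 and 1.83 TP10K in ZT14 libraries 5 to 8, against 6.16, 2.08, 5.19 and 4.86 TP10K in ZT02 libraries 1 to 4. Its log2 fold change of -2.06 (SE 0.34) missed the threshold by edgeR (adjusted p = 0.0823). *sr* was called in these cells by DESeq2 (adjusted p = 4.73e-05), with all 23 libraries in the fit (0.0157), without the filter, and without ZT02 library 2 (0.00292), ZT14 library 8 (0.0288) or both ZT02 libraries 2 and 4 (0.00975). In *Vmat*-low cells *sr* was at 0.92, 0.791, 0.742 and 0.363 TP10K at ZT14 and 1.85, 2.61, 3.65 and 2.39 at ZT02, called by edgeR (log2 fold change -1.92, SE 0.28, adjusted p = 0.0239). That call was lost in 9 of 15 alternatives, with log2 fold changes between -2.06 and -1.56 over all of them. The groups did not overlap in either class, which held, with ZT14 below, for 1.94% of the genes in *Vmat*-high and 1.59% in *Vmat*-low cells (with ZT14 above, 2.24% and 2.57%). The test of the difference between the classes, with the library as a block, gave -0.15 for *sr* (95% interval -1.12 to 0.82). *CG30497* was likewise at 5.67 to 12.2 TP10K at ZT14 and 12.7 to 34.0 at ZT02 in *Vmat*-high cells, and at 5.85 to 9.95 and 13.9 to 22.5 in *Vmat*-low cells, not called by edgeR in either class. DESeq2 called it in *Vmat*-low cells (log2 fold change -1.17, adjusted p = 2.1e-05), and edgeR did in *Vmat*-high cells thinned to equal depth (-1.33, adjusted p = 0.0352). *CrebA* was at 0.363 to 1.0 and 1.64 to 2.28 TP10K in *Vmat*-high cells (log2 fold change -1.55, SE 0.29, adjusted p = 0.0908 by edgeR and 0.00976 by DESeq2).

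Over all genes, the *Vmat*-high cells gave no edgeR call among 3036 genes (0% in each direction), with 124 genes lower (4.08%) and 75 higher (2.47%) at an unadjusted p under 0.05, and DESeq2 called 3 lower, *sr*, *CrebA* and *CG44247* (0.0309%), and 1 higher, *CG8861* (0.0103%). Among 3389 genes the *Vmat*-low cells gave 2 called lower (0.059%) and 2 called higher (0.059%), with 128 lower (3.78%) and 99 higher (2.92%) at an unadjusted p under 0.05, and DESeq2 called 13 lower (0.977% of the 1330 genes with an adjusted p) and 5 higher (0.376%). Beside *sr* the lower gene was *CG34126*, uncharacterised, at 0.92, 1.29, 1.19 and 1.35 TP10K in ZT14 libraries and 2.9, 2.97, 2.36 and 2.59 in ZT02 libraries (log2 fold change -1.21, SE 0.18, adjusted p = 0.0239). *pdm2*, a POU-domain transcription factor gene, was higher, at 0.697, 0.996, 0.467 and 0.825 TP10K at ZT14 and 0.0309, 0.153, 0.0589 and 0.0336 at ZT02 (log2 fold change 3.28, SE 0.46, adjusted p = 0.0239). Its ZT02 levels rest on few UMIs, and it passed the filter on low counts through the ZT14 libraries. *CG6409* was higher as well, at 4.79, 2.75, 24.5 and 9.27 TP10K against 0.0927, 0.537, 0.353 and 0.739 (4.6, SE 0.71, adjusted p = 0.0277), but over all cells a single cell gave 45.5% to 96.6% of its UMIs in each ZT14 library. Without that cell the ZT14 libraries stood at 0.105, 0.139, 8.65 and 2.32 TP10K of *CG6409* and the ZT02 libraries at 0.0428 to 0.096. For *pdm2* the groups overlapped over all cells, at 0.365 to 0.915 TP10K at ZT14 and 0.0182 to 0.536 at ZT02. Its log2 fold change there was 1.32, and it was not called. Leaving out ZT02 library 1, 3 or 4 or ZT14 library 8 ended all 4 calls in *Vmat*-low cells, ZT02 library 2 left *pdm2*, ZT14 library 6 left *CG6409*, and ZT14 library 7 left both of these. With thinned cells *CG6409* alone was called, *pdm2* falling below the filter, and without both ZT02 libraries 2 and 4 *pdm2* alone of the 4 was. DESeq2 called *sr*, *CG34126* and *CG6409* and gave *pdm2* no adjusted p. Over the alternatives the log2 fold changes ran from -1.28 to -0.97 for *CG34126*, 3.07 to 3.93 for *pdm2* and 3.67 to 5.39 for *CG6409*.

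No gene was called for a difference between the classes among 3720 tested (0% in each direction, 88 genes negative, 2.37%, and 75 positive, 2.02%, at an unadjusted p under 0.05), DESeq2 not being run for it. For *pdm2* the estimate was the most negative of the 4 genes called in *Vmat*-low cells (difference of log2 fold changes, *Vmat*-high minus *Vmat*-low, -3.33, SE 0.79, adjusted p = 0.392). Among the dopaminergic genes the differences were 0.635 for *DAT* (SE 0.195, adjusted p = 0.907), 0.51 for *ple* (SE 0.20, adjusted p = 0.995), 0.34 for *Ddc*, 0.735 for *Pu*, -0.39 for *Dhpr* and -0.27 for *Sptr*. Those of *DAT* and *ple* had an unadjusted p under 0.05. For *tim* the difference was -1.99 (SE 0.66, adjusted p = 0.907). In *Vmat*-low cells *ple* was at 3.07 to 4.01 TP10K at ZT14 and 4.51 to 6.24 at ZT02 and *DAT* at 1.35 to 1.85 and 2.1 to 2.69, both without overlap. Of all genes tested in these cells 1.59% had every ZT14 library below every ZT02 library. The log2 fold changes were -0.54 for *ple* and -0.611 for *DAT*, and neither was called by edgeR or DESeq2. The median *Vmat* level of single *Vmat*-low cells was 2.57, 3.21, 7.02 and 4.06 TP10K in the ZT14 libraries and 8.04, 7.72, 7.6 and 6.79 in the ZT02 libraries, and its part in the values of *ple* and *DAT* was not tested. In *Vmat*-high cells *ple* was at 29.1 to 45.0 and 33.0 to 38.4 TP10K and *DAT* at 30.7 to 38.0 and 30.8 to 35.6.

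Among genes of energy metabolism and translation none was called by edgeR or DESeq2. At an unadjusted p under 0.05, 6 respiratory chain and 2 ribosomal protein genes were higher, which held for 3.1% of all genes tested. Of the 62 nuclear genes of the respiratory chain and ATP synthase that were tested, out of 81, 53 had a positive log2 fold change, the median was 0.17, and in 8 every ZT14 library lay above every ZT02 library (3.01% of all genes). The smallest p was that of *UQCR-C2*, a core subunit of complex III, at 2.04, 2.38, 2.56 and 2.14 TP10K in ZT14 libraries and 1.37, 1.68, 1.42 and 1.62 in ZT02 libraries (log2 fold change 0.54, SE 0.13, adjusted p = 0.324). Its partner *UQCR-C1* had a log2 fold change of 0.44 and *ATPsyngamma*, a subunit of ATP synthase, one of 0.44 (adjusted p = 0.424 and 0.475). The most abundant members were *ATPsynC* (12.9 ± 1.68 TP10K at ZT14 and 11.8 ± 1.07 at ZT02), *ATPsynbeta* (10.5 ± 1.43 and 8.92 ± 0.492) and *COX4* (7.35 ± 0.987 and 5.99 ± 0.582). In *Vmat*-high cells 54 of 61 members were positive (median 0.23) and in *Vmat*-low cells 50 of 62 (median 0.16). Of the 13 mitochondrially encoded genes 11 were tested, 9 were negative, and the median was -0.17, with *mt:CoI* at 108 to 124 TP10K at ZT14 and 111 to 145 at ZT02, while *mt:ATPase8* (96.5 ± 5.33 and 85.9 ± 11.3) was positive. Among cytosolic ribosomal protein genes 77 of 88 were tested, 59 were positive, the median was 0.08, and 11 had no overlap with ZT14 above. Their summed share of UMIs was 2.27%, 2.15%, 2.27% and 2.34% at ZT14 and 2.01%, 2.0%, 2.11% and 2.13% at ZT02 (exact permutation p = 0.0286, adjusted p = 0.171).

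Neuropeptide genes were uneven over the libraries. Of 33 precursor genes 15 were tested by edgeR, none was called, and 5 were positive and 10 negative. At an unadjusted p under 0.05, 2 were higher and 5 lower (3.1% and 4.33% of all genes tested). DESeq2 called *Pdf* (log2 fold change -7.48, adjusted p = 0.00446) and *Nplp3* (-8.83, adjusted p = 0.0128) lower over all cells, both below the filter of edgeR. It also called *ITP* higher in *Vmat*-low cells (6.94, adjusted p = 0.0476). Without the filter edgeR called 2 precursor genes higher, *Hug* and *ITP*, and 5 lower, *AstA*, *Ms*, *NPF*, *Nplp3* and *Pdf*. *NPF*, which encodes the fly neuropeptide F, was at 0, 0.0153, 0.638 and 0.219 TP10K in the ZT14 libraries and 59.1, 0.438, 4.67 and 0.0365 in the ZT02 libraries (log2 fold change -6.15, SE 1.75, adjusted p = 0.424), so that ZT02 library 1 set the mean. *ITP*, the ion transport peptide gene, was at 0.0345, 0.0459, 36.1 and 27.1 TP10K in ZT14 libraries 5 to 8 and at most 0.526 in a ZT02 library (6.17, SE 1.69, adjusted p = 0.417). One cell held 2281 of the 2773 *ITP* UMIs of library 7 and another 1500 of the 1606 of library 8. *Hug*, which encodes hugin peptides, stood at 15.5, 5.07, 0.0911 and 40.8 TP10K at ZT14 and reached 2.84 at ZT02 (4.15, adjusted p = 0.584). *AstC*, the allatostatin C gene, was high in every library, at 31.9 to 59.2 and 43.5 to 64.2 TP10K (log2 fold change -0.45, SE 0.19, adjusted p = 0.645). The myosuppressin gene *Ms* was at 46.2 TP10K in ZT02 library 2 and at most 2.86 in the other 7. *Pdf*, the peptide gene of ventral clock neurons, was below the filter of edgeR. It had 1 UMI in each ZT14 library and 94, 44, 703 and 0 UMIs in ZT02 libraries 1 to 4, and 642 of the 703 in library 3 came from one cell.

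In the lists of receptors no gene was called by edgeR or DESeq2 over all cells, and among synaptic genes DESeq2 called *Rab3*. At an unadjusted p under 0.05, 1 gene was lower in each of these 3 lists and none was higher (4.33% and 3.1% of all genes tested). Without the filter edgeR called *Rab3* lower too. Of 15 amine receptor genes tested 9 were negative (median -0.17), led in level by the steroid and dopamine receptor *DopEcR* (3.07 ± 0.498 TP10K at ZT14 and 3.31 ± 0.579 at ZT02), the autoreceptor *Dop2R* (2.72 ± 0.444 and 3.24 ± 0.523) and the octopamine receptor *Octbeta2R* (2.13 ± 0.578 and 2.62 ± 0.523). Among 15 neuropeptide receptors 9 were positive, with *AstA-R1* (1.24 ± 0.46 and 1.07 ± 0.221), *Lgr1* (0.57 ± 0.285 and 0.53 ± 0.4) and *Dh31-R* (0.544 ± 0.201 and 0.49 ± 0.117) the highest. Of 23 genes of synaptic vesicles and active zones 18 were negative (median -0.09). *Rab3*, a GTPase of synaptic vesicles, was the one with every ZT14 library below every ZT02 library, which held for 1.58% of all genes tested. It stood at 10.1, 13.5, 10.0 and 12.5 TP10K in the ZT14 libraries and 15.3, 16.5, 19.6 and 14.1 in the ZT02 libraries (log2 fold change -0.56, SE 0.13, adjusted p = 0.267 by edgeR and 0.00526 by DESeq2). The most abundant members, *cpx* (69.5 ± 7.28 and 70 ± 11 TP10K), *Syt1* (32.2 ± 3.04 and 33.3 ± 4.39) and *nSyb* (24.7 ± 1.96 and 24.5 ± 2.59), had log2 fold changes of -0.06, -0.10 and -0.04. *fwe*, a vesicle protein gene outside the list, was at 17.7 to 19.4 and 21.6 to 31.5 TP10K (log2 fold change -0.52, SE 0.12, adjusted p = 0.263 by edgeR and 0.00446 by DESeq2).

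In second messenger signalling edgeR called no gene, DESeq2 called *CrebA*, and 4 genes were lower at an unadjusted p under 0.05 (4.33% of all genes tested). Without the filter edgeR called *CrebA* and *rut* lower. Of 25 calcium and cAMP signalling genes tested 16 were negative, and in 3, *CrebA*, *Ac13E* and *rut*, every ZT14 library lay below every ZT02 library (1.58% of genes). *rut*, the calcium-stimulated adenylyl cyclase known from olfactory learning, was at 0.768 to 0.978 TP10K at ZT14 and 1.17 to 2.94 at ZT02 (log2 fold change -0.98, SE 0.28, adjusted p = 0.424). *Ac13E*, another adenylyl cyclase gene, stood at 0.413 to 0.622 and 0.693 to 1.03 TP10K (-0.805, SE 0.217, adjusted p = 0.417). Calmodulin (*Cam*) was at 93.5 ± 6.08 and 87.5 ± 4.81 TP10K, *Galphao* at 19.5 ± 1.39 and 21.7 ± 1.71, and *Cbp53E* at 18.3 ± 2.27 and 18 ± 4.87. Of 26 ion channel and transporter genes 15 were negative, and the most abundant of the 26 were the potassium channel gene *Sh* (32.2 ± 1.06 and 36.3 ± 3.46 TP10K), *Nckx30C* (16 ± 1.28 and 17.4 ± 1.46) and *Ih* (15.9 ± 1.34 and 15 ± 1.58). Of 17 sleep regulators 13 were negative (median -0.13), *Sh*, the GABA receptor gene *Rdl* (25.1 ± 6.42 and 25.7 ± 4.16) and *DAT* being the most abundant. At an unadjusted p under 0.05, 1 channel gene and 2 sleep regulators were lower and none was higher (4.33% and 3.1% of all genes tested).

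Stress, nutrient and cell surface genes gave no call by edgeR or DESeq2. Without the filter edgeR called 1 of them over all cells, *Drs*, higher. Among them 2 heat shock genes and 1 insulin gene were lower at an unadjusted p under 0.05, which held for 4.33% of all genes tested. Of 16 heat shock and chaperone genes 10 were negative, with *Hsc70-4* (6.67 ± 1.08 TP10K at ZT14 and 7.03 ± 0.571 at ZT02), *Hsp83* (6.08 ± 1.02 and 6.04 ± 0.832) and *Hsp23* (1.61 ± 0.378 and 1.73 ± 0.797) the highest, and of 10 genes of the unfolded protein response 7 were positive, led by *Hsc70-3* (4.32 ± 0.669 and 3.59 ± 0.545), *Calr* (3.11 ± 0.459 and 2.51 ± 0.656) and *crc* (2.83 ± 0.118 and 2.71 ± 0.257). Among 15 insulin and nutrient genes 10 were negative, the kinase gene *S6k* (1.3 ± 0.383 and 1.95 ± 0.287), *REPTOR* (1.31 ± 0.176 and 1.11 ± 0.437) and *InR* (0.865 ± 0.119 and 1.03 ± 0.188) being the highest. Only 2 of 22 immune effector genes passed the filter, *Drsl5* (0.46 ± 0.436 and 0.206 ± 0.2) and *vir-1* (0.179 ± 0.226 and 0.273 ± 0.251), while *Drs*, an antifungal peptide gene below it, was at 11.5 TP10K in one ZT14 library and at most 0.0163 TP10K at ZT02. Of 28 *dpr* and *DIP* genes, which encode paired surface proteins of synaptic partner choice, 16 were negative (median -0.10), and *DIP-alpha* (9.88 ± 2.51 and 9.43 ± 1.61 TP10K), *dpr12* (3.74 ± 0.92 and 3.85 ± 0.273) and *dpr9* (3.07 ± 0.86 and 3.73 ± 0.878) led.

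Of the markers of other cells edgeR called none over all cells, and DESeq2 called the clock neuron marker *Pdf* lower (adjusted p = 0.00446). The clock neuron list also holds *tim* and *vri*, whose levels are given above. It summed to 0.173 to 4.67 TP10K at ZT14 and 0.328 to 8.9 at ZT02. Without the filter edgeR called *tim* and *vri* higher and *Pdf* and the fat body marker *to* lower. The serotonergic marker *Trh* averaged 0.679 TP10K at ZT14 and 0.828 at ZT02, the octopaminergic *Tbh* 1.08 and 2.06, *ChAT* 5.46 and 4.22, *VGlut* 11.3 and 12.5, *Gad1* 6.35 and 8.94, the glial *Gs2* 0.787 and 0.611, *mub* of Kenyon cells 9.01 and 9.9, *rdgB* of photoreceptors 4.37 and 4.79, and *Apoltp* of the fat body 0.296 and 0.26. The libraries were uneven in *Gad1*, at 0.321 TP10K in ZT14 library 8 and 16.2 in ZT02 library 4, and in *Trh*, at 0.0345 TP10K in ZT14 library 5 and 1.99 in ZT14 library 7. *Pxn*, a peroxidasin gene on the hemocyte list, was at 1.09 to 1.54 TP10K at ZT14 and 0.735 to 0.918 at ZT02 (log2 fold change 0.73, SE 0.17, adjusted p = 0.267), while *NimC1*, *He* and *Col4a1* of that list had no UMI. In muscle, the best represented marker *up* averaged 0.0172 TP10K at ZT14 and had no UMI at ZT02. Of the photoreceptor list, which averaged 7.27 TP10K at ZT14 and 7.91 at ZT02, *rdgB* and *norpA* (2.85 and 3.0) made up most. Its members *ninaA*, *Arr2* and *Rh6* had no UMI, and neither had *VAChT*, the other cholinergic marker beside *ChAT*.

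Technical measures of the libraries were compared by two-sided exact permutation tests, 12 in all, and none passed after adjustment. At 3000 UMIs the median cell had 1103.5, 1125.5, 1097 and 1110 genes in ZT14 libraries 5 to 8, against 1068, 1077, 1064 and 1048 genes in ZT02 libraries 1 to 4, a difference of 44.8 without overlap (exact permutation p = 0.0286, adjusted p = 0.171). This difference stands beside every comparison above, and its part in them was not tested. Spike-in RNA took 4.67 ± 0.795% of UMIs at ZT14 and 4.88 ± 0.473% at ZT02, mitochondrially encoded RNA 5.05 ± 0.295% and 5.33 ± 0.668%, heat shock genes 0.237 ± 0.0333% and 0.255 ± 0.0144%, and photoreceptor genes 0.0727 ± 0.00502% and 0.0791 ± 0.00917% (SD, n = 4 each). Most of the photoreceptor share was *rdgB* and *norpA*. The male-specific dosage compensation RNA *roX1* was at 28.4, 27.7, 40.5 and 29.9 TP10K in the ZT14 libraries and 25.5, 22.2, 30.5 and 19.7 in the ZT02 libraries (exact permutation p = 0.114, adjusted p = 0.343).

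**Figure D5:**
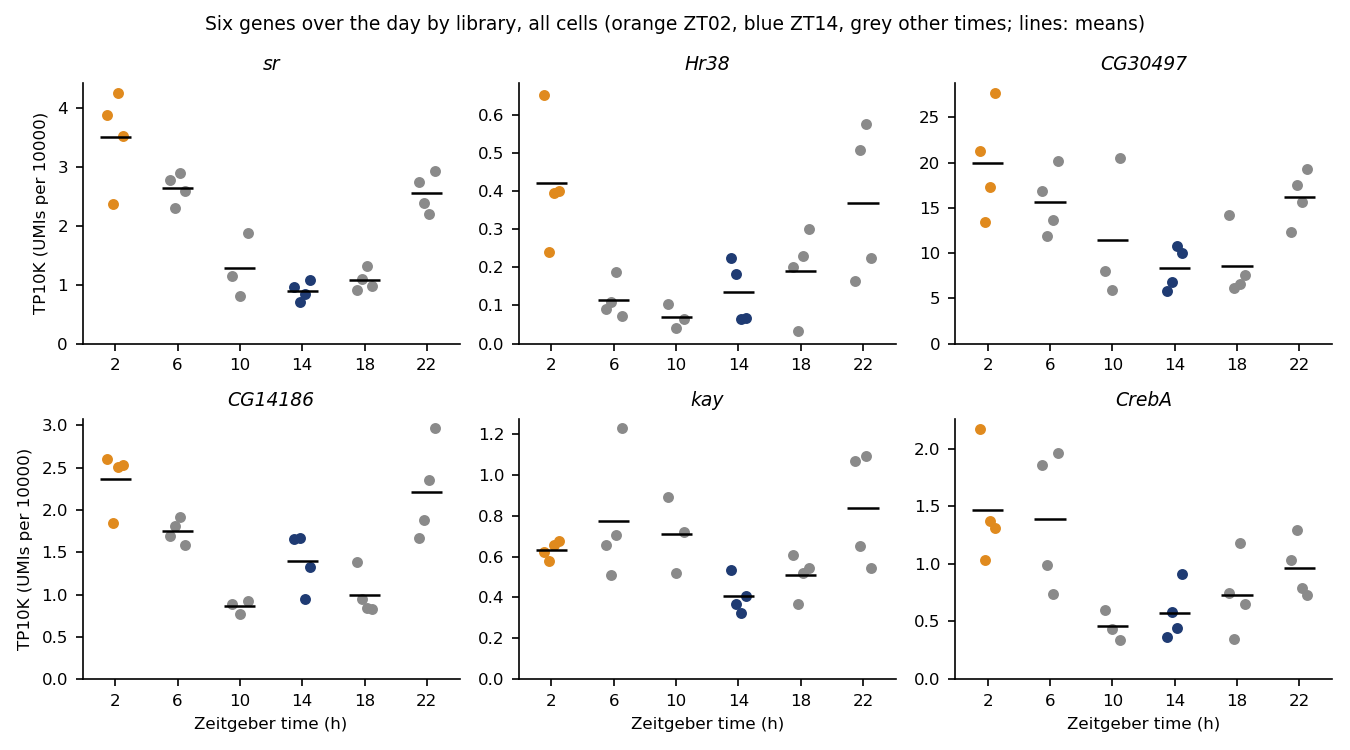
Levels of 6 genes in UMIs per 10000 (TP10K, axis from 0) in each of the 23 CEL-seq2 libraries against zeitgeber time, with lines for the means, orange for ZT02, blue for ZT14 and grey for the other times. *sr* is between 2.2 and 4.25 TP10K at ZT22, ZT02 and ZT06 and between 0.703 and 1.88 at ZT10, ZT14 and ZT18.

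At the other times of day, sampled in libraries whose titles carry other numbers, levels are given as a description. The libraries of ZT06 and ZT22 share one final number and those of ZT10 and ZT18 another, so at these 4 times high and low *sr* levels follow the title number and cannot be told apart from it. Over all cells *sr* stood at 3.51 ± 0.815 TP10K at ZT02, 2.64 at ZT06, 1.28 at ZT10, 0.896 ± 0.163 at ZT14, 1.07 at ZT18 and 2.56 at ZT22, with 3 libraries at ZT10 and 4 at each other time. No library of ZT10, ZT14 or ZT18 reached the lowest of ZT22, ZT02 and ZT06, which was 2.2 TP10K, and the libraries of ZT10 (0.801 to 1.88 TP10K), ZT14 (0.703 to 1.08) and ZT18 (0.914 to 1.31) overlapped, as did those of ZT22, ZT02 and ZT06. In *Vmat*-high cells the mean of *sr* ran 4.57, 3.57, 1.5, 1.11, 1.27 and 3.47 TP10K from ZT02 to ZT22, and in *Vmat*-low cells 2.62, 1.88, 0.792, 0.704, 0.86 and 1.99. *CG30497* averaged 19.9, 15.7, 11.5, 8.37, 8.61 and 16.2 TP10K over the same times, but 1 of the ZT10 libraries stood at 20.5. *CG14186* averaged 2.37, 1.75, 0.864, 1.4, 0.999 and 2.22 TP10K and *Hr38* 0.422, 0.115, 0.0693, 0.135, 0.191 and 0.368, so *Hr38* was already low at ZT06. *kay* was lowest on average at ZT14, at 0.408 TP10K, and *CrebA* averaged 1.47, 1.39, 0.458, 0.574, 0.732 and 0.96. Over all cells the dopaminergic genes varied less, *ple* averaging between 15.5 and 18.7 TP10K and *Vmat* between 66.7 and 91.4. In *Vmat*-high cells they varied more, *ple* averaging between 23.7 TP10K at ZT18 and 37.0 at ZT14 and *Vmat* between 117 at ZT18 and 196 at ZT22. Both genes had their lowest means in these cells at ZT18 and ZT10, which share a title number. *fwe* averaged 25.6 TP10K at ZT02 and 18.5 at ZT14, against 9.23 to 15.8 at the 4 other times, so that both times compared here lay above the rest, as they did for *Rab3* (16.4 and 11.5, against 6.89 to 11.1).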

How the data were processed

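The values are UMI counts per gene and cell, deposited by the authors as whole numbers without normalization; per their methods, reads were mapped to dm6 and exonic UMIs counted with zUMIs, with a filter on each cell's UMIs, genes and entropy. The labels name bcl2fastq 2.20 and Cell Ranger 6.0.2 for the series. Counts were summed per library without the 91 spike-in rows (17087 genes kept). A further 7509 columns, the 10X Chromium libraries among them, were not used here. ZT14 and ZT02 were compared with edgeR 4.0.16 (TMM, filterByExpr, quasi-likelihood F test, Benjamini-Hochberg) in R 4.3.3, and library measures by exact permutation over 70 splits (scipy 1.17.1, numpy 2.4.6). DESeq2 1.42.0, other normalizations, no filter, thinned cells, all 23 CEL-seq2 libraries and leaving out each library were alternatives. *Vmat* classes (cut at 20 TP10K) were chosen after seeing the data. The code was tested on simulated data. Coordinates are from the BDGP6.54 annotation, of the same assembly, matched by symbol or synonym. Members and gene lists were chosen with earlier results of these data known. Named genes are the called ones, *ple*, *Ddc*, *Vmat*, *DAT*, *per*, *tim*, *Clk*, *vri*, *Pdp1*, *cwo*, *cry*, *sr*, *Hr38*, called or up to 3 most abundant members of each list, the most abundant member of each marker list, and genes called in *Vmat* cells; others were named after their values were seen. Numbers of UMIs limit the precision, and cells of a library are not replicates.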

Additional observations from a re-analysis of the deposited data

Results flagged for a closer look

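In groups of 4 libraries, 1 library stood apart from the other 3 in 4 of the 66 groups examined, where chance gives about 1 in 20. All 4 were ZT02 libraries. *tim* was at 0.0547 TP10K in ZT02 library 4, against 0.227 to 0.261 in the other 3, which is 3 UMIs of one cell. *Clk* was at 0.184 TP10K in ZT02 library 2, against 0.012 to 0.0365. *CG14186* was at 1.84 TP10K in ZT02 library 2, against 2.51 to 2.6, and the same library was lowest of its time in *sr*, *Hr38* and *CG30497*. *CG8910* was at 0.766 TP10K in ZT02 library 4, against 0.663 to 0.669.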

How the results depend on the processing

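No paired analysis was possible because the libraries of the 2 times share no replicate number. Calls over all cells (higher, lower) were 0 and 1. They were 23 and 50 with no filter on low counts, 4 and 21 by DESeq2, and 1 and 0 with thinned cells, where 2353 genes were tested and *CG6409* was the one called. Leaving out single libraries gave 0 to 1 higher (*tim* without ZT14 library 5, *CG6409* without ZT14 library 6 or 7) and 1 lower. Leaving out both ZT02 libraries 2 and 4, chosen after seeing the data, gave 0 higher and 3 lower over all cells and over cells with a *Vmat* UMI, 0 and 4 in *Vmat*-high cells (*sr*, *Pdf*, *Syn1*, *NPF*), 2 and 2 in *Vmat*-low cells, and 2 positive and 0 negative for the difference between the classes. Over cells with a *Vmat* UMI the counts were 23 and 49 with no filter, 5 and 19 by DESeq2, 1 and 0 with thinned cells, and 0 to 1 higher without single libraries. In *Vmat*-high cells, a class added after the data were seen, 0 and 0 became 13 and 52 with no filter, 1 and 3 by DESeq2, 1 lower with all 23 libraries and 1 lower with thinned cells, and 0 to 3 lower without single libraries. In *Vmat*-low cells 2 and 2 became 34 and 46 with no filter, 5 and 13 by DESeq2, 1 and 0 with thinned cells, and 0 to 3 higher and 0 to 2 lower without single libraries. With all 23 libraries 1 was called higher there (*pdm2*), and the same 2 were called lower (*sr* and *CG34126*). For the difference between the classes 0 and 0 became 4 positive and 7 negative with no filter, and 0 to 2 positive and 0 to 1 negative without single libraries. The cause was not tested, except that the setting without a filter tests more genes (11180 over all cells) and thinning fewer. The planned comparisons of cells with and without a *Vmat* UMI and of the 10X libraries were not run: cells without a *Vmat* UMI were 4 in all, and the 10X libraries were not used here.

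Some values near 0 changed sign. With thinned cells *Vmat* was at 0.058, *DAT* at 0.16, *CG14024* at 0.50 and *CG13868* at 0.027 on the log2 scale, with library totals *DAT* was at 0.0036, and without both ZT02 libraries 2 and 4 *per* was at -0.14. Leaving out single libraries gave ranges of -0.21 to 0.047 for *ple*, -0.16 to 0.0021 for *Vmat*, -0.093 to 0.022 for *DAT*, -0.29 to 0.55 for *per* and -0.29 to 0.0038 for *CG13868*, of -0.567 to 0.0474 percentage points for the spike-in share, and of -87.5 to 731 for the median UMIs per cell, ZT14 minus ZT02. Depth limits scarce genes such as *Hr38*, with 146 UMIs in all.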

Other observations

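Some transcripts were spread over the cells of single libraries in different ways. *sprt* was at 15.7 and 8.62 TP10K in ZT02 libraries 2 and 4 and at 0.18 to 0.321 TP10K in the other 6 libraries. It had a UMI in 68 of 68 cells of library 2 and 54 of 55 of library 4, against 7 to 16 cells in each other library, and its top cell held only 5.03% and 8.03% of the UMIs. It was at 15.8 and 8.37 TP10K in *Vmat*-high cells and at 15.7 and 8.84 TP10K in *Vmat*-low cells of these libraries. *CG12239* instead came mostly from one cell, which held 3417 of the 5087 UMIs of ZT02 library 3, and 71 of 71 cells of that library had a UMI. *ITP* had a UMI in 32 of 71 cells of ZT02 library 3 with no cell above 3 UMIs. ZT02 libraries 2 and 4 are 2 of the 4 that the labels give as one ZT02 group, and what separates them from the others was not tested.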
